A study of Homo sapiens with 43 samples.

Results

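Replication-dependent histone genes encode the core histones H2A, H2B, H3 and H4 and the linker histone H1 that package newly made DNA. The set described here has 55 genes, 5 of class H1, 13 of H2A, 16 of H2B, 10 of H3 and 11 of H4, among the 58347 gene entries of the RNA-seq count table. They were taken from a fixed list of histone genes, 53 by Ensembl ID and 2 (H3C2 and H3C3) by an older symbol. The list holds 51 genes on chromosome 6 and 4 on chromosome 1 (H2AC20, H2AC21, H2BC18 and H2BC21). All samples were of HEL, an established line of human erythroleukemia, stably transduced with U2AF1 as S34F mutant, Q157R mutant or wild type (WT). U2AF1 is the small subunit of U2AF, which binds 3′ splice sites together with its large subunit U2AF2. Induced cells received doxycycline at 1 µg/ml for 48 hours. RNA-seq after rRNA depletion covered 2 induced and 1 uninduced S34F libraries, 2 induced and 1 uninduced Q157R libraries, and 2 induced and 2 uninduced WT libraries. The uninduced cells of each line carried the same construct without doxycycline, so untransduced cells are not part of any comparison. The CLIP assays, which sequence RNA crosslinked to a protein, used induced cells in every library.

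Replication-dependent histone mRNAs are made in bulk in S phase, when new DNA needs new nucleosomes, and are degraded when S phase ends. Most of these genes have no intron, and their mRNAs end in a conserved stem-loop in place of a poly(A) tail. The stem-loop is bound by SLBP and is cut with the help of the U7 snRNP. Replacement variants such as H3-3B or H2AZ1 are instead made throughout the cell cycle as polyadenylated mRNAs.

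The stem-loops are shown because they are the feature that sets these mRNAs apart. A stem of 6 base pairs with a loop of 4 bases was found within 200 bases after the stop codon in the GENCODE 29 transcripts of 21 of the 55 genes, and it began 22 to 56 bases after the stop codon. The search required a stem that begins with GG and ends with CC and a loop that begins with TT, and it allowed G-T pairs. Every form below therefore shares these bases because of the search itself. Of the other 34 genes, 30 have transcripts that are annotated to end at the stop codon. Their stem-loops are therefore not in their own annotated transcripts. The match counted for H2BC15 (chr6:27865778-27865793, plus strand) lies just past the end of H2AC16, which is among those 30. It was read from a transcript annotated to H2BC15. The capitals mark stem and loop, and the coordinates (GRCh38) are those of the capitals. The sequences of a member of each of the 5 forms follow.
H4C9 (chr6:27139654-27139669, plus strand): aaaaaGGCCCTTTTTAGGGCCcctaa
H4C5 (chr6:26205001-26205016, plus strand): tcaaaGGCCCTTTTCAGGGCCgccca
H2BC13 (chr6:27807484-27807499, minus strand): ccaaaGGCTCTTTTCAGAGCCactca
H2BC4 (chr6:26123472-26123487, minus strand): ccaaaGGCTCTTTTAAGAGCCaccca
H2AC11 (chr6:27133515-27133530, plus strand): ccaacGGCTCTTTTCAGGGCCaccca

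The form of H2BC13 was shared by 11 genes of classes H2A, H2B and H3, among them H2AC6, H2AC8, H2AC13, H2BC18 and H2BC21. This count includes H2BC15, with the match that lies beside H2AC16. The form of H4C5 was shared by 4 genes, all of class H4 (H4C2, H4C5, H4C8 and H4C11). The form of H2BC4 was shared by 4 genes, the others being H2BC5, H2BC7 and H3C8. H4C9 and H2AC11 each had a form of their own.

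The promoters differ by class. In the 300 bases around the start (250 before and 50 after, RefSeq on GRCh38.p14; 50 of the 55 genes matched), the octamer ATTTGCAT, which binds OCT1, was present on either strand in 10 of 12 H2A and 13 of 16 H2B promoters. It was present in 1 of 8 H3 promoters, in 0 of 5 H1 and in 0 of 9 H4 promoters, against 1.77% of all 35116 promoters in the table. The H3 match was that of H3C4, whose listed promoter is the same stretch as that of H2AC7, so this stretch is counted in both classes. CCAAT was present in 88% of the histone promoters, against 34.6% of all, and TATAAA in 66%, against 11.5% of all. None of these 3 motifs contains another. Stretches from 120 bases before to 10 after the start are shown for an H2B and an H4 gene that both appear in the results, with motif matches in capitals.
H2BC10 (chr6:26272811-26272940, plus strand, octamer and CCAAT): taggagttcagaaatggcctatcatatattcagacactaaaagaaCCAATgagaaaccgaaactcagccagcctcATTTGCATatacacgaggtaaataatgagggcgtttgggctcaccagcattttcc
H4C4 (chr6:26189103-26189232, minus strand, TATAAA): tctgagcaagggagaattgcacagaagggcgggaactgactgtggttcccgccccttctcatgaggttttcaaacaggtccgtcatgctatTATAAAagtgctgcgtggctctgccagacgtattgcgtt

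The RNA-seq libraries held 22392303 to 40370092 counts assigned to genes. Reads that fell in no annotated gene feature were 33.7% and 33.5% of the total in the 2 induced S34F libraries, 23.2% and 27.0% in induced Q157R, 22.7% in both induced WT libraries and 19.0% to 20.6% in the 4 uninduced libraries. This share moved with the S34F results below, and its part in them was not tested. U2AF1, the gene carried by each construct, had 18.01 and 19.4 CPM (counts scaled to a common library size with TMM) in induced S34F cells, against 21.2 CPM before induction. It had 21.5 and 15.2 CPM in induced Q157R cells, against 22.1 CPM before, and 19.1 and 11.0 CPM in induced WT cells, against 13.4 and 12.6 CPM before. The log2 fold changes on induction were -0.18 (SE 0.35) for S34F, -0.27 (SE 0.35) for Q157R and 0.21 (SE 0.29) for WT, and none was called by edgeR. These counts hold the cell's own gene together with the construct, and a near-identical copy, U2AF1L5, is annotated in this build. They therefore give no check of induction or of which protein was made, and the groups below are those of the labels. The erythroid regulators GATA1 (146 to 224 CPM) and TAL1 (384 to 522 CPM) and the platelet integrin ITGA2B (736 to 2058 CPM) were present in every library. Of 8 markers of other cell types, the B-cell marker MS4A1 was at 0 in every library, whereas PECAM1, an endothelial and platelet marker (272 to 516 CPM), and the epithelial keratin KRT8 (16.8 to 73.8 CPM) were not low.

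Levels differed widely between the histone genes. Per kilobase of annotated exon, the highest mean level over the 10 libraries was 763 CPM per kb for H2BC12, followed by H3C2 (741 CPM per kb), H1-2 (731 CPM per kb) and H1-5 (726 CPM per kb). The highest H2A and H4 genes by this measure were lower, as H2AC13 stood at 383 CPM per kb and H4C2 at 298 CPM per kb. Annotated models differ in length, which moves this order: H2BC15, with 5.48 kb of exon, had a mean of 116 CPM but 21.2 CPM per kb. At the other end, 6 genes had a mean below 1 CPM (H1-1, H2AC7, H2AC17, H3C4, H3C8 and H4C6). H3C4 had 0 counts in every library. H2AC7 and H3C4 lie within exons of an unnamed gene on the same strand, and H2AC17 shares exon sequence with H3C12, so reads there cannot be given to 1 gene with certainty. The 4 genes that did not pass the filter on low counts, and were not tested, were H2AC7, H2AC17, H3C4 and H4C6, which left 51.

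The histone genes stood lowest in induced S34F cells, and this held in each of the 5 classes. Summed over the 55 genes, the libraries of induced cells had 3031 and 3041 CPM for S34F, 4738 and 6266 CPM for Q157R, and 6074 and 6666 CPM for WT. Before induction the sum was 8321 CPM in S34F cells, 8323 CPM in Q157R cells, and 9683 and 8826 CPM in WT cells. The induced S34F mean was 0.477 of the induced WT mean, and by class the ratio lay between 0.455 for H2A and 0.490 for H2B and H4. The corresponding ratio of induced Q157R to induced WT cells lay between 0.810 for H1 and 0.902 for H4. These sums are given without a test. Fewer cells in S phase and less histone mRNA per cell cannot be told apart in such bulk libraries.

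**Figure D1:**
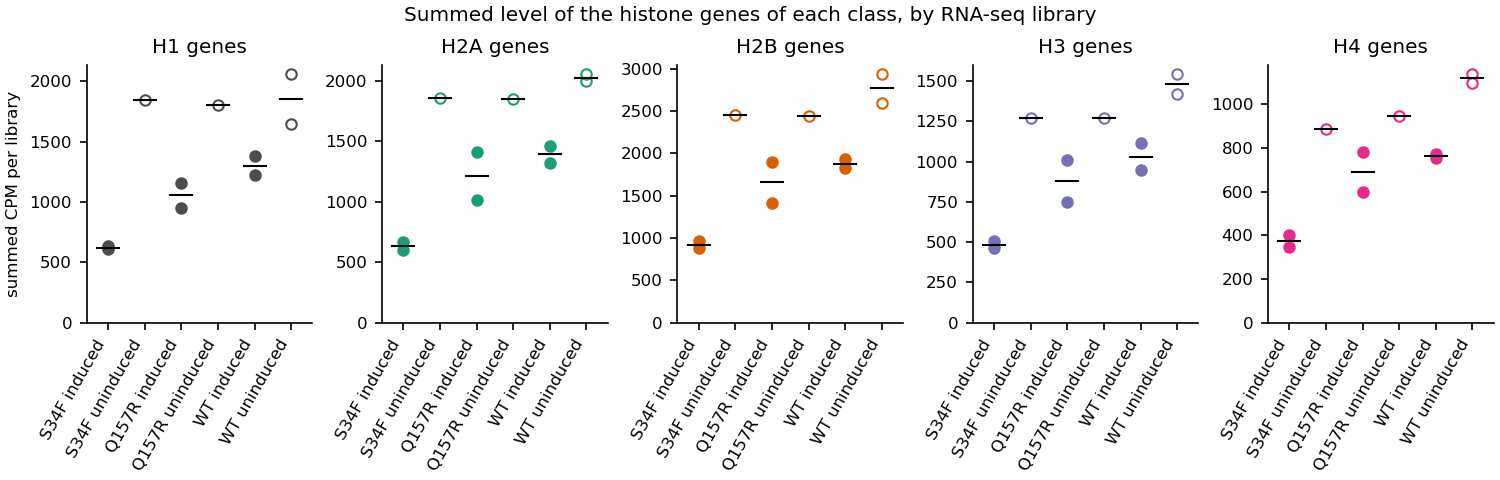
Summed CPM of the genes of each class (vertical axes, from 0) in each RNA-seq library, by line and induction; each point is a library, filled for induced and open for uninduced cells, and the bar is the group mean. In each class both induced S34F libraries lie below every other library; for H2A they stand at 598 and 669 CPM, against 1322 and 1462 CPM in induced WT cells.

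The comparison of induced S34F with induced WT cells sets the S34F line against the WT line after the same treatment. Of the 51 histone genes tested, 17 fell in S34F cells and none rose (quasi-likelihood F test of edgeR, with p adjusted by Benjamini-Hochberg over all genes and called under 0.05), and 0.991% of the 21300 genes tested were called lower. A log2 fold change below 0 was found for 47 of the 51, with a median of -1.07. The median over all genes tested was 0.00 and over protein-coding genes -0.16. In 46 of the 51, both S34F libraries lay below both WT libraries, as did 27.3% of all genes tested. The 48 genes with a mean of at least 10 CPM included 47 with a negative value, the exception being H3C6.

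The 17 calls rested on adjusted p-values of 0.0432 to 0.0451 by edgeR, just under the threshold. Like-numbered libraries of different groups deviated together; when replicate number entered the fit as a block, 46 of the 51 were lower at the same threshold, beside 12.9% of all genes. Leaving out any of the 4 libraries left 0 calls among the histone genes and among all genes, while the median log2 fold change of the histone genes stayed between -1.15 and -1.03.

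The linker histones bind the nucleosome where DNA enters and leaves it. H1-5, the most abundant of the 55 by CPM, had 183 and 202 CPM in induced S34F cells, against 497 and 430.3 CPM in induced WT cells. H1-5 fell by 1.27 on the log2 scale (SE 0.18, adjusted p = 0.0432 by edgeR). H1-4 had 132 and 119 CPM in S34F cells, against 268 and 311 CPM in WT cells. H1-4 fell by 1.21 (SE 0.19, adjusted p = 0.0444 by edgeR), and in neither gene did the groups overlap. H1-2 averaged 256 ± 14.5 CPM in S34F cells, against 479 ± 126 CPM in WT cells (SD of 2 libraries in each group), with a log2 fold change of -0.90 (SE 0.25) that was not called. H1-3 was not called either, at -0.58 (SE 0.34). H1-1, at 0.197 and 0.230 CPM in S34F cells and 0.249 and 0.111 CPM in WT cells, was too low to compare.

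H2A and H2B form the dimers that flank the central tetramer of the nucleosome. All 11 tested H2A genes had a negative value in S34F against WT cells, with a median of -1.10, and 3 fell. H2AC16 had 27.7 and 36.1 CPM in S34F cells, against 85.4 and 92.2 CPM in WT cells, a log2 fold change of -1.48 (SE 0.24). H2AC16 shares exon sequence with H2BC15 on the same strand, so its reads cannot be assigned with certainty. H2AC20 stood at 45.4 and 57.9 CPM in S34F cells, against 122 and 153 CPM in WT cells, and fell by 1.41 (SE 0.26). H2AC8 fell by 0.98 (SE 0.18). The groups did not overlap for any of the 3. The most abundant H2A gene, H2AC11, had 113 and 132 CPM in S34F cells, against 276 and 366 CPM in WT cells. Its log2 fold change of -1.39 (SE 0.27) missed the call at an adjusted p of 0.0503 (edgeR). H2AC13 was at -1.03 (SE 0.21), and H2AC6 had the value nearest to 0 in its class at -0.70 (SE 0.33). The remaining tested H2A genes (H2AC4, H2AC12, H2AC14, H2AC15 and H2AC21) lay between -1.34 and -0.91, uncalled.

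Among the 16 H2B genes, 8 fell in S34F against WT cells and the class median was -1.17. H2BC10 had 7.21 and 5.49 CPM in S34F cells, against 20.0 and 16.7 CPM in WT cells. Its log2 fold change was -1.53 (SE 0.22, adjusted p = 0.0444 by edgeR). H2BC13 had 38.6 and 39.2 CPM in S34F cells, against 95.3 and 99.3 CPM in WT cells, and fell by 1.32 (SE 0.21). H2BC17 fell by 1.31 (SE 0.23) and H2BC18, from the cluster on chromosome 1, by 1.22 (SE 0.22). The other 4 that fell were H2BC4, H2BC5, H2BC9 and H2BC14, with log2 fold changes between -1.17 and -0.99. Both S34F libraries were below both WT libraries for all 8. H2BC12, the H2B gene with the highest level, had 165 and 176 CPM in S34F cells, against 265 and 313 CPM in WT cells, and its log2 fold change of -0.76 (SE 0.22) was not called. H2BC11 (-1.37, SE 0.28) and H2BC21 (-0.90, SE 0.21) were not called either. H2BC6 had the highest value of the class, 0.18 (SE 0.26), at 6.11 and 4.60 CPM in S34F cells and 4.39 and 5.08 CPM in WT cells, where the groups overlapped. Opposite-strand genes overlap H2BC6 and H2BC18 (FCGR1A for H2BC18), and the strand setting of the counting is not given in the sources used here. The rest of the class (H2BC3, H2BC7, H2BC8 and H2BC15) lay between -1.31 and -0.65.

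H3 and H4 form the central tetramer. Of the 9 tested H3 genes, 7 had a negative value and 1 fell. H3C7 had 36.0 and 42.0 CPM in S34F cells, against 87.6 and 114 CPM in WT cells, a log2 fold change of -1.37 (SE 0.24, adjusted p = 0.0449 by edgeR). H3C2, the most abundant H3 gene, had 119 and 151 CPM in S34F cells, against 279 and 396 CPM in WT cells. Its value of -1.32 (SE 0.27) was not called (adjusted p = 0.0530 by edgeR), although the groups did not overlap. H3C3 (-1.22, SE 0.31), H3C11 (-0.94, SE 0.26) and H3C10 (-0.80, SE 0.25) were also uncalled, as were H3C1 and H3C12. H3C6 had 17.5 and 16.4 CPM in S34F cells, against 13.8 and 15.1 CPM in WT cells, a value of 0.23 (SE 0.21) that was not called. H3C8 had the highest value of the 51, 1.04 (SE 0.56), from 0.512 and 0.296 CPM in S34F cells and 0.199 and 0.184 CPM in WT cells, and was not called.

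All 10 tested H4 genes had a negative value, and 3 fell. H4C9 had the lowest value of the 51. It stood at 18.5 and 19.2 CPM in S34F cells, against 62.3 and 72.4 CPM in WT cells, and fell by 1.83 on the log2 scale (SE 0.24, adjusted p = 0.0432 by edgeR), which is 3.57-fold lower. H4C4 had 29.3 and 21.0 CPM in S34F cells, against 83.0 and 65.6 CPM in WT cells, and fell by 1.56 (SE 0.22). H4C1 had 13.6 and 13.9 CPM in S34F cells, against 36.6 and 42.2 CPM in WT cells, and fell by 1.52 (SE 0.26). None of these pairs of groups overlapped. The most abundant H4 genes were nearer to 0 and uncalled: H4C5 at -0.79 (SE 0.21), H4C2 at -1.04 (SE 0.22), H4C3 at -1.07 (SE 0.25) and H4C13 at -0.88 (SE 0.43). For H4C13 the groups overlapped, with 52.1 and 34.2 CPM in S34F cells and 108 and 50.9 CPM in WT cells. H4C8 had the highest value of the class at -0.55 (SE 0.21), and H4C11 and H4C12 lay at -0.87 and -0.62.

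**Figure D2:**
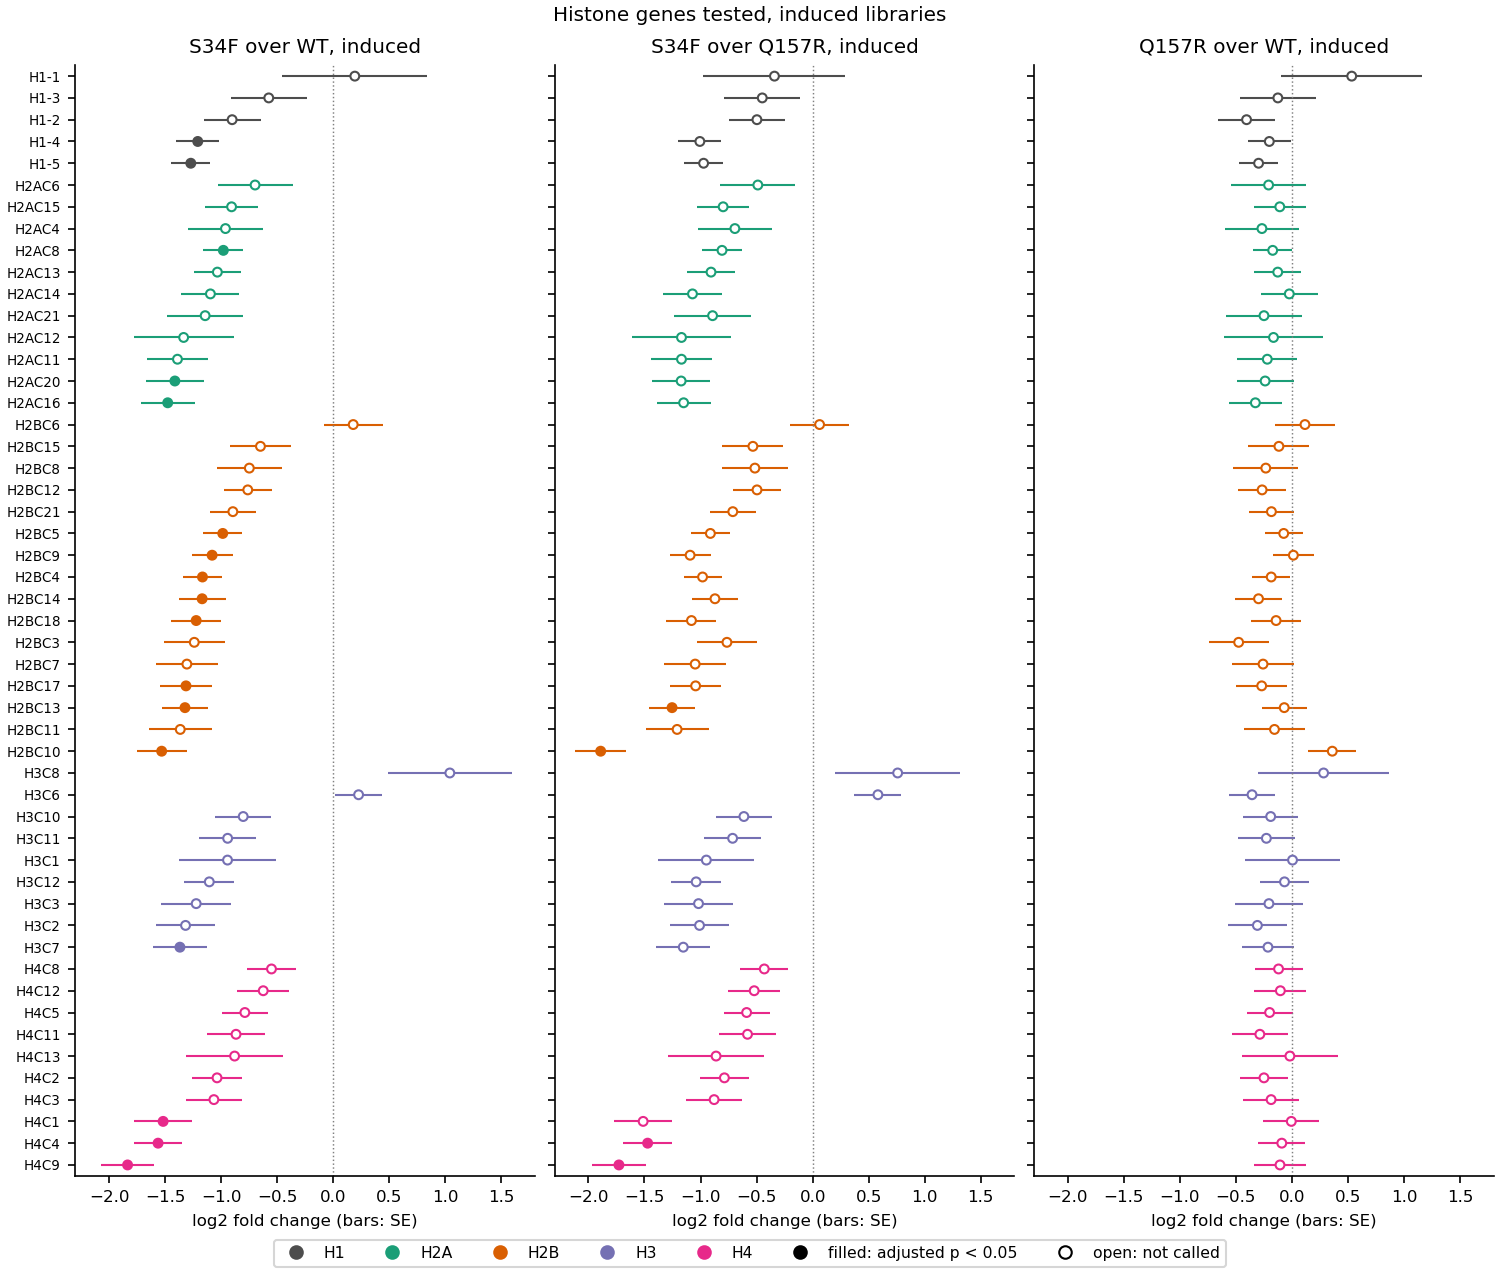
Log2 fold change (horizontal axes) of each of the 51 histone genes tested, grouped and coloured by class, for induced S34F over WT, S34F over Q157R and Q157R over WT; bars are standard errors and filled points have an adjusted p under 0.05 by edgeR. Nearly all points lie left of 0 in both S34F panels, and the points of the Q157R over WT panel lie between -0.48 and 0.53.

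The 2 mutants were also set against each other. In induced S34F against induced Q157R cells 48 of the 51 genes had a negative value, with a median of -0.89. Of these, 4 fell and none rose, beside 0.258% of all genes called lower. In 46 of the 51 both S34F libraries lay below both Q157R libraries, as in 25.5% of all genes tested. H2BC10 had 7.21 and 5.49 CPM in S34F cells, against 22.8 and 24.3 CPM in Q157R cells, and fell by 1.89 (SE 0.23, adjusted p = 0.0385 by edgeR). H4C9 had 18.5 and 19.2 CPM in S34F cells, against 47.9 and 77.1 CPM in Q157R cells, and fell by 1.73 (SE 0.24). H4C4 had 29.3 and 21.0 CPM in S34F cells, against 67.1 and 72.4 CPM in Q157R cells, and fell by 1.47 (SE 0.22). H2BC13 had 38.6 and 39.2 CPM in S34F cells, against 78.5 and 107 CPM in Q157R cells, and fell by 1.25 (SE 0.21). The same 4 genes also fell against WT, but both comparisons share the induced S34F libraries. With the replicate block 39 genes were lower, beside 11.5% of all genes, and H3C6 was higher at 17.5 and 16.4 CPM in S34F cells, against 10.0 and 12.6 CPM in Q157R cells, beside 8.49% of all genes called higher. Leaving out any of the 4 libraries left 0 calls, with the median between -0.998 and -0.70.

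In induced Q157R against induced WT cells no histone gene was called, and 0% of all genes were called lower (edgeR; DESeq2 called 0 histone genes too, and 0 had an unadjusted p under 0.05, beside 3.36% of all genes). The median log2 fold change was -0.19, and 45 of the 51 values were negative. The highest was H1-1, at 0.335 and 0.212 CPM in Q157R cells and 0.249 and 0.111 CPM in WT cells. Among the abundant genes H1-2 was at -0.41 (SE 0.25), H1-5 at -0.30 (SE 0.17), H2AC11 at -0.22 (SE 0.27), H3C2 at -0.31 (SE 0.26) and H4C5 at -0.20 (SE 0.20). The 2 induced Q157R libraries themselves lay apart, as the sums of 4738 and 6266 CPM show, and the median was 0.02 without replicate 1 and -0.38 without replicate 2 of induced Q157R cells, and -0.07 without replicate 2 of induced WT cells.

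After doxycycline most histone genes had negative point estimates in each line, and calls were made in the S34F line. In that line 24 of the 51 genes fell and none rose, beside 1.26% of all genes called lower, and 49 values were negative, with a median of -1.44. H2BC10 had 7.21 and 5.49 CPM after induction, against 32.2 CPM before, a log2 fold change of -2.34 (SE 0.26). H4C9 had 18.5 and 19.2 CPM after induction, against 82.6 CPM before, and fell by 2.13 (SE 0.27). H3C3 had 60.5 and 59.1 CPM after, against 244 CPM before, and fell by 2.03 (SE 0.36). H2AC14 fell by 1.97 (SE 0.30), H2BC18 by 1.93 (SE 0.26), H2AC20 by 1.91 (SE 0.30) and H4C4 by 1.90 (SE 0.25). H1-5 fell by 1.86 (SE 0.20), H3C12 by 1.82 (SE 0.26) and H2BC11 by 1.82 (SE 0.33). The adjusted p-values of these 10 lay between 0.0340 and 0.0434 (edgeR), and the uninduced library was above both induced ones in each. By class, 2 of 5 H1 genes, 6 of 11 H2A, 11 of 16 H2B, 3 of 9 H3 and 2 of 10 H4 fell. The uninduced S34F group was 1 library, which was assumed to vary like the others. With the replicate block 47 genes were lower, beside 11.0% of all genes, and leaving out either induced S34F library left 0 calls, with the median between -1.51 and -1.46.

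In the WT line 49 of the 51 values were negative after induction, with a median of -0.59, and no gene was called, with 0% of all genes called lower. DESeq2 called 0 as well, and the unadjusted p was under 0.05 for 24 of the 51, beside 6.40% of all genes tested. Both induced libraries lay below both uninduced ones for 41 of the 51, as for 16.3% of all genes. H2BC10 had 20.0 and 16.7 CPM after induction, against 37.2 and 29.9 CPM before, a value of -0.87 (SE 0.22). H1-5 had 497 and 430.3 CPM after, against 805 and 644 CPM before, a value of -0.64 (SE 0.17). Under the replicate block H3C1 and H3C12 were lower, beside 0.164% of all genes. In the Q157R line, also with 1 uninduced library, 47 of the 51 values were negative, with a median of -0.51, and no gene was called, with 0% of all genes called lower (DESeq2 called 0, and the unadjusted p was under 0.05 for 16, beside 8.86% of all genes). H1-5 had 381 and 373 CPM after induction of Q157R, against 734 CPM before, and H4C9 had 47.9 and 77.1 CPM after, against 93.6 CPM before. The median of this line was -0.29 without replicate 1 and -0.74 without replicate 2 of induced Q157R cells. H3C8, listed at 0 in the uninduced Q157R library, is given no fold. It is among the 16 genes with an unadjusted p under 0.05 (edgeR), with a positive value.

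**Figure D3:**
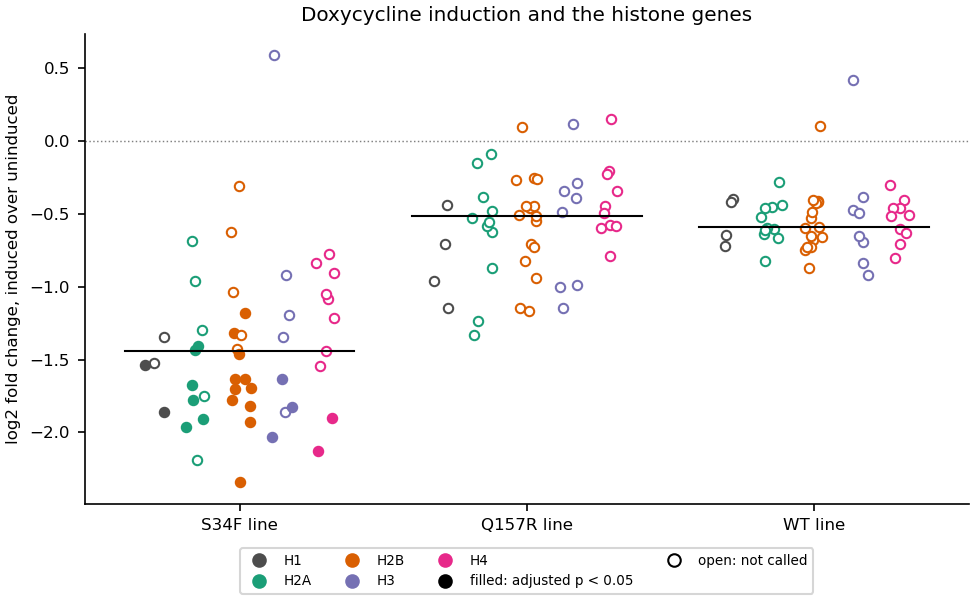
Log2 fold change of induced over uninduced cells (vertical axis) in each line for the 49 tested genes with a mean of at least 1 CPM, placed by class; filled points have an adjusted p under 0.05 by edgeR, and the bar is the median over all 51 genes tested. The median lies at -1.44 in the S34F line, at -0.51 in the Q157R line and at -0.59 in the WT line, and every filled point is in the S34F line.

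The difference between inductions was tested directly. The response of the S34F line minus that of the WT line was negative for 48 of the 51 genes, with a median of -0.94, and none passed (0% of all genes called lower; DESeq2 called 0, and the unadjusted p was under 0.05 for 26, beside 8.19% of all genes). Under the replicate block 9 histone genes were lower, beside 0.554% of all genes: H1-5, H2AC11, H2AC13, H2AC16, H2AC20, H2BC10, H2BC18, H3C2 and H4C9. The same difference for Q157R had a median of 0.00, with 26 negative and 25 positive values and no call (0% of all genes called lower, and DESeq2 called 0). Only H3C8, at 0 in the uninduced Q157R library, had an unadjusted p under 0.05 (edgeR), beside 1.23% of all genes. The median of this difference was 0.25 without replicate 1 and -0.22 without replicate 2 of induced Q157R cells. The uninduced S34F library against the 2 uninduced WT libraries had a median of -0.15 with no call, and the uninduced Q157R library had a median of -0.16 with no call (0% of all genes called lower in each). DESeq2 called 0 in both, and the unadjusted p was under 0.05 for 0 histone genes in S34F cells, beside 0.859% of all genes, and for 2 in Q157R cells, beside 1.10%. H3C8, at 0 in the uninduced Q157R library, was 1 of these 2. Without replicate 1 of the uninduced WT cells the S34F median was -0.08 and without replicate 2 it was -0.27; for Q157R these medians were -0.14 and -0.24.

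The genes that act with these histones were read from lists, which like the histone genes were chosen with earlier results of these data known. Among 44 S phase and DNA replication genes, 43 had a negative value in induced S34F against WT cells, with a median of -0.83. Beside 0.991% of all genes called lower, 5 of the 44 fell. These were the helicase subunits MCM2 (-1.17, SE 0.20) and MCM6 (-1.40, SE 0.24), the polymerase subunit POLD1 (-0.96, SE 0.18), and the nucleotide enzymes TYMS (-1.01, SE 0.15) and TK1 (-1.01, SE 0.15). TYMS had 68.8 and 72.8 CPM in S34F cells, against 143 and 142 CPM in WT cells. Among 30 G2 and M phase genes the median was -0.10, with 16 negative and 14 positive values, and 1 gene, the topoisomerase TOP2A, fell (-1.001, SE 0.17). With the replicate block 26 of the 44 S phase genes were lower, and 5 of the 30 G2 and M phase genes were lower and 1 higher. Of all 21300 genes tested, 12.9% were lower and 2036 genes were higher under this block. Both lists were negative in the WT line on induction, all 44 with a median of -0.52 and all 30 with a median of -0.68, and none was called. Under the block 1 S phase gene and 7 G2 and M phase genes were lower in that line, beside 0.164% of all genes. In S34F against Q157R cells POLD1 (-1.14, SE 0.18), TK1 (-1.10, SE 0.15) and TOP2A (-1.30, SE 0.17) fell, beside 0.258% of all genes called lower. Under the block 23 S phase and 9 G2 and M phase genes were lower in this comparison, beside 11.5% of all genes.

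Replacement variants and the factors that make or handle histones lay nearer to 0 in S34F against WT cells. In this comparison 0.991% of all genes were called lower. Of 9 tested replacement variants 8 had a negative value, with a median of -0.35, and H2AZ1, which marks promoters, fell. It had 86.3 and 77.1 CPM in S34F cells, against 167 and 170 CPM in WT cells, a log2 fold change of -1.04 (SE 0.15), and it fell by 1.10 (SE 0.15) against Q157R cells. Of 16 histone chaperones 14 were negative, with a median of -0.46, and ASF1B, which hands H3 and H4 to the assembly factors, fell by 1.20 (SE 0.18). Of 22 tested genes for histone mRNA transcription and 3′ end processing 18 were negative, with a median of -0.34, and the cap-binding subunit NCBP1 fell by 1.23 (SE 0.24). SLBP and NPAT were named for their role and after their values were seen. SLBP, which binds the stem-loop, had 61.1 and 66.1 CPM in S34F cells, against 130 and 91.8 CPM in WT cells, and was not called at -0.80 (SE 0.23). NPAT, which drives histone transcription, had 81.9 and 79.6 CPM in S34F cells, against 96.9 and 68.3 CPM in WT cells, and the groups overlapped. Among 9 tested histone genes outside the set, 8 were negative, with a median of -1.13, and H3C13 fell by 1.17 (SE 0.22). With the replicate block 3 replacement variants, 10 chaperones, 9 processing genes and 2 of the histone genes outside the set were lower, beside 12.9% of all genes. Under it 1 chaperone and 1 processing gene were higher, beside 2036 of all 21300 genes. By comparison 344 other protein-coding genes with a single exon had a median of -0.02, with 5 called lower and 1 called higher (56 lower and 27 higher with the block). Of the 10 HEL markers 9 had a negative log2 fold change, with a median of -0.51 (range -2.33 to 0.37), and the integrin ITGB3 fell by 0.95 (SE 0.17). The lowest of these markers was not called, but its value was below that of every histone gene tested (lowest -1.83). Of the 4 tested markers of other cell types 2 were negative, with a median of 0.07, and 0 were called. With the block 5 of the 10 HEL markers were lower, beside 12.9% of all genes. The collagen gene COL1A1 was higher with the block, at 1.18 and 0.953 CPM in S34F cells, against 0.224 and 0.294 CPM in WT cells. The part of either marker list in the histone results was not tested.

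**Figure D4:**
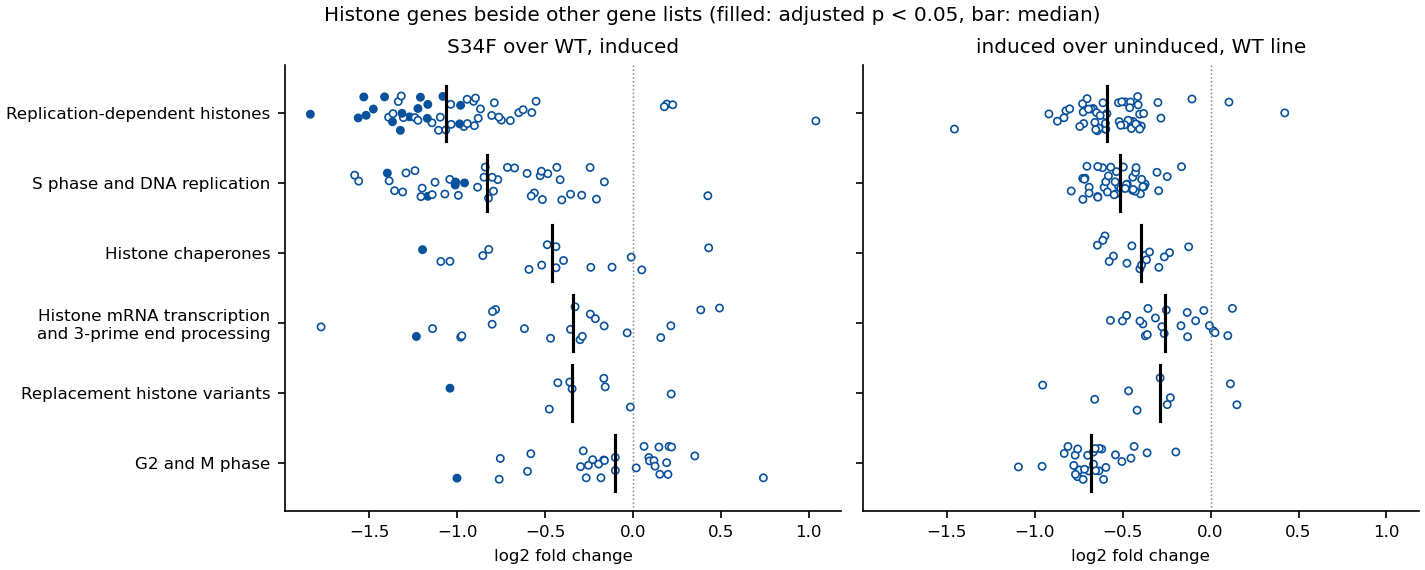
Log2 fold change (horizontal axes, same scale) of the tested genes of 6 lists (the replication-dependent histones and 5 others) for induced S34F over WT cells and for induced over uninduced WT cells; each point is a gene, filled where the adjusted p by edgeR is under 0.05, and bars are medians. For S34F over WT the medians run from -1.07 for the replication-dependent histones to -0.10 for G2 and M phase genes; on induction of WT these medians are -0.59 and -0.68.

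Within the set, values were split by annotation, as descriptions over the 48 genes with a mean of at least 10 CPM. The 14 genes whose annotated transcripts run over 300 bases past the stop codon had a median log2 fold change of -0.85 in induced S34F against WT cells (range -1.39 to 0.23). The other 34 had a median of -1.16 (range -1.83 to -0.58). The 20 genes with an octamer in the promoter had a median of -1.17, and the other 28 had a median of -1.01. These 28 include H2AC12, H3C11, H3C12, H4C1 and H4C3, for which no promoter was matched. The 4 genes on chromosome 1 had a median of -1.18 and the 44 on chromosome 6 a median of -1.07. All of these ranges overlap.

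Histone genes also differed between replicate numbers. Of the 51 tested genes, 7 were lower in replicate 2 than in replicate 1 in each of the 4 groups that had 2 libraries, and 11 were higher in replicate 2 in each. Of all 21300 genes tested 19.1% were lower and 19.5% higher in the same sense, so these counts are not shown to be particular to the histone genes. H4C13 was among those lower: it had 52.1 CPM in replicate 1 and 34.2 CPM in replicate 2 of induced S34F cells, and 172 and 86.1 CPM in the uninduced WT replicates. H2AC6 was among those higher: it had 102 and 111 CPM in the induced S34F replicates, and 130 and 215 CPM in the induced WT replicates. What the replicate number stands for is not given in the sources used here.

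The CLIP libraries show which of these genes gave RNA crosslinked to U2AF. In eCLIP the protein is recovered by antibody; in freCLIP the U2AF1 complexes were also divided by size into a light and a heavy fraction. Genes without introns have no 3′ splice site, and the tables give a count per gene without the place of the reads within it. The 55 genes held 2967 of 4955495 gene counts over the 7 eCLIP libraries and 2822 of 4236102 over the 17 freCLIP libraries. In WT eCLIP, with technical replicates summed, they took 576 and 880.3 CPM for U2AF1 (here and below for CLIP, CPM without TMM scaling) and 611 and 546 for U2AF2. In the induced WT RNA-seq libraries they took 6038 and 6513 CPM on the same scale.

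These crosslinked reads came from few genes. H4C9 held 1298 of the 2967 eCLIP counts (43.7%), H2BC15 held 889 (30.0%) and H2AC15 held 254 (8.56%). In RNA-seq the same 3 genes held 3.34% of the counts of the set, and H4C9 alone 1.08%. In freCLIP they held 75.4%. H2BC15 is annotated with 4 exons. H2AC15 overlaps it on the opposite strand and H2AC16 on the same strand, so the counts of these genes may not be separate. H4C9 is annotated with 1 exon, which overlaps no other annotated exon. H2BC6, H3C6, H2AC21 and H3C1 followed with 101, 75, 66 and 33 eCLIP counts. H2BC6 is annotated with 4 exons and H3C6 with 2. Opposite-strand genes overlap H2BC6 and H2AC21 (BOLA1 for H2AC21), so their counts may not be separate either. The abundant H1-2 had 13 eCLIP counts, against 137608 in RNA-seq, and 38 of the 55 genes had 10 or fewer. H2AC7, H2AC12, H2AC17, H2BC14, H3C4, H4C4 and H4C12 had 0, which allows up to 0.605 CPM each (3 counts over all libraries, counting error only).

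**Figure D5:**
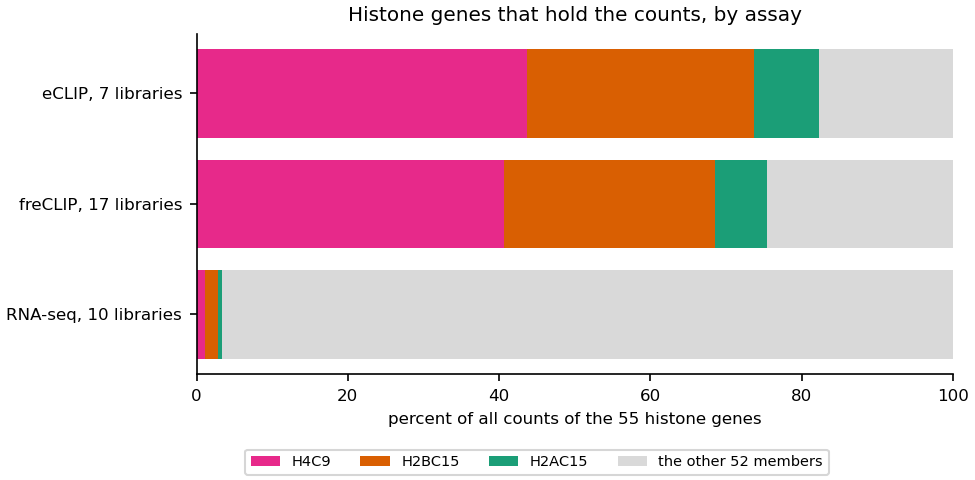
Share (percent, horizontal axis) of all counts of the 55 histone genes that fell in H4C9, H2BC15, H2AC15 and the other 52 genes, in eCLIP, freCLIP and RNA-seq, each summed over its libraries. The 3 named genes hold 82.3% in eCLIP and 75.4% in freCLIP, beside 3.34% in RNA-seq.

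Between genotypes, the summed counts of the histone genes were a larger part of the heavy fraction in the S34F than in the WT libraries. The values were 842, 733 and 857 CPM in the 3 S34F libraries, against 547, 592, 631 and 410 in the 4 WT libraries, and the groups did not overlap. The 2 Q157R libraries had 586 and 522. The sums rest on few genes: 15, 11 and 14 of the 55 had a count in the heavy S34F libraries, and 13, 10, 17 and 9 in the WT libraries. H4C9, H2BC15 and H2AC15 together held 172, 76 and 349 of the 217, 101 and 528 counts in S34F. In WT they held 51, 44, 378 and 207 of 66, 59, 461 and 258. These sums are given without a test, and the share of all genes that separate in the same way was not taken. Over other protein-coding genes with a single exon the order was the reverse, with 16100, 16090 and 17880 CPM in the S34F libraries, against 19470, 22230, 26150 and 27440 in the WT libraries. In the light fraction the values were 828, 744 and 1240 in S34F cells, against 823, 623 and 602 in WT cells, and they overlapped. Single genes did not pass a test at this depth of 38415 to 730996 gene counts per library. Of 8 histone genes that passed the filter, 0 were called in S34F against WT cells in the light fraction (0.337% of 6833 genes called) and 0 in the heavy fraction (0.132% called). DESeq2 also called 0, and only H2AC15 in the light fraction had an unadjusted p under 0.05. H4C9 had 396, 254 and 336 CPM in the heavy S34F libraries, against 199, 351, 364 and 243 in WT, a log2 fold change of 0.16 (SE 0.54). H2BC15 had 213, 283 and 193 CPM in heavy S34F libraries, against 215, 70.2, 103 and 73.1 in WT, a value of 0.99 (SE 0.60) that was not called.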

How the data were processed

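RNA-seq, eCLIP and freCLIP were measured in 34 of the 43 samples; another 9, of TimeLapse-seq, are not used here. The authors deposited raw read counts per gene, per the file headers. Per the submitters' processing notes, the tools were HTSeq, HISAT2, STAR (2.5.3a and 2.7.0f), cutadapt, DESeq2, edgeR and SAMtools, with GRCh38.p10; annotation release and strand setting are not given in the sources used here. Reads that named no gene stayed out of library sizes (43.6% to 56.1% of RNA-seq reads named a gene). The tables hold no molecular identifiers, so intervals cover counting error only. Symbols, exons and coordinates came from GENCODE 29 and RefSeq.

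Fits used edgeR 4.0.16 in R 4.3.3: TMM, filterByExpr (minimum count 10), robust quasi-likelihood F test, 1 mean per group over all 10 RNA-seq or 17 freCLIP libraries, Benjamini-Hochberg adjustment over all genes, threshold 0.05. The fit was run on simulated counts with the same spread for every gene and no deviation shared by like-numbered libraries. That run cannot show how the fit performs where such libraries deviate together. CPM values use TMM library sizes. Labels call replicates biological without naming separate cultures, so p-values measure the spread between these samples, which may be technical. Like-numbered RNA-seq libraries deviated together in every pair of the 4 groups with 2 libraries (correlations 0.211 to 0.652). With 2 libraries in a group the deviations mirror each other, so replicates 1 and 2 give the same correlation, not separate ones. The block was therefore given beside results it changed. Alternatives were the block, DESeq2 1.42.0, RLE size factors, no filter, protein-coding genes only, only the compared groups and leaving out each library. Members and lists were chosen with earlier results of these data known. Named with values are the 4 most abundant genes of each class, called genes (10 largest per comparison), the highest and lowest value per class, and called list genes or the 2 most abundant.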

Additional observations from a re-analysis of the deposited data

How the results depend on the processing

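Counts of calls changed with the processing, whereas no called value changed sign. The adjusted p of H4C9 in S34F against WT cells ranged from 2.1e-10 to 0.359 over the alternatives. For S34F against WT (17 calls, 1.67% of all genes called in either direction), the count was 46 with the replicate block (22.4% of all genes), 37 with DESeq2 (7.79%), 42 without the filter (6.23%), 5 with protein-coding genes only (0.939%) and 0 with only the compared groups (0%). For S34F against Q157R (4 calls, 0.559% of all genes) these counts were 40, 28, 35, 1 and 0, beside 20.0%, 6.25%, 5.52%, 0.433% and 0% of all genes. For induction in the S34F line (24 calls, 1.96%) they were 47, 42, 44, 13 and 46, beside 19.2%, 8.69%, 7.74%, 1.09% and 21.5%. Induction in the WT line gave 2 with the block (0.418%), and induction in the Q157R line gave 9 without the filter (1.47%). The difference of S34F and WT inductions gave 9 with the block (0.704%) and 9 without the filter (0.791%). RLE size factors changed no count by over 1.5 times, and the block changed no other histone count by over 1.5 times. Leaving out 1 library gave 0 to 0 histone calls in every comparison. The median for S34F against WT was -0.92 with protein-coding genes only, against -1.07, and the median of protein-coding genes in the fit over all genes was -0.16. The cause of the other changes was not tested. Over the named genes in 3 comparisons, 670 alternative values kept their side of the threshold and sign, 159 passed it newly, 144 no longer passed and none of the called values changed sign; those of induction in the S34F line were added after seeing the data. The CLIP libraries held few histone counts, which limits single-gene comparisons there.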
